A study of Mus musculus with 35 samples.

Results

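The genes described are Csf1 and Il34, the ligands of the colony stimulating factor 1 receptor, and Csf1r, which encodes the receptor. They were chosen by name, as 3 of the 32285 genes counted in the nuclei, and followed through every nuclei library and every bulk library. The series asked how the transcription factor TFEB and the vacuolar proton pump it controls bear on tau disease in the mouse hippocampus. Single nuclei came from frozen hippocampus of C57BL/6 mice aged 9 months: WT (3 libraries), PS19 (3), CLEAR (4) and CLEAR_PS19 (4), with 1 female library in each group and the rest male. PS19 mice carry a mutant human tau transgene driven by the prion protein promoter, which acts in many cell types. CLEAR mice carry, as far as the labels and the known study tell, a mutated TFEB binding element in Atp6v1h, a pump subunit gene, and CLEAR_PS19 mice carry both. Bulk RNA came from WT and PS19 hippocampus at 4 months (6 libraries each) and 9 months (5 WT and 4 PS19). The labels give no sex for the bulk libraries, and 1 PS19 library at 9 months was not used here. They do not state that every library is a separate animal, so each p-value measures the spread between these libraries.

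CSF1R is a receptor tyrosine kinase of the class III family, carried in the brain mainly by microglia and by the macrophages at its borders. Either ligand makes it dimerise and phosphorylate itself, which recruits adaptor proteins, phosphoinositide 3-kinase and Src family kinases. Microglia need this signal to survive, and they multiply when it is strong. In the healthy brain Il34 is known chiefly as a neuronal product and Csf1 as a product of glia, and the ligands share the receptor but are unrelated in sequence.

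The nuclei files held 144991 barcodes, of which 132322 nuclei were kept (7171 to 14563 per library, median 3111 to 8176 UMIs per nucleus). Clustering without the 3 genes gave classes named from marker genes, each to be read as cells like that type, and 6681 nuclei (5.05%) stayed unnamed. Libraries shared at most 70 barcodes. Bulk libraries held 9630430 to 17182605 counts. The labels give no batch. Granule neuron profiles of the nuclei libraries were clustered with the number of sets fixed at 3. The sets were 6 male libraries spread over all groups, the 4 female libraries, and CLEAR 1 and 2 with CLEAR_PS19 1 and 2. Within the last set, replicates of a group lay much closer than elsewhere (chi-square per gene 3.79 and 4.96, against 39.7 to 123 for the other 16 pairs of one group). They differed by more than counting noise, which cannot show that they come from separate animals, and were kept as separate samples. The tests of tau in microglia and over all nuclei are also given without them. The order of classes and the tau fits of other classes are given only with them.

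Csf1 (ENSMUSG00000014599) lies on the minus strand at chr3:107741048-107760469 of GRCm38, and no other annotated gene overlaps it. Il34 (ENSMUSG00000031750) lies on the minus strand at chr8:110741829-110805924, and its exons overlap those of the antisense genes Gm15894 and Gm15895. A bulk header records counting without strand, so bulk reads in this overlap cannot be assigned to a strand. Of the members, only the Csf1 promoter was in the RefSeq table, and it is shown because Csf1 changed more than Csf1r inside microglia: the 250 bases before its start, on GRCm38.p6, chr3:107760470-107760719, minus strand, written 5′ to 3′. Capitals mark a match to the kappa B motif.
Csf1: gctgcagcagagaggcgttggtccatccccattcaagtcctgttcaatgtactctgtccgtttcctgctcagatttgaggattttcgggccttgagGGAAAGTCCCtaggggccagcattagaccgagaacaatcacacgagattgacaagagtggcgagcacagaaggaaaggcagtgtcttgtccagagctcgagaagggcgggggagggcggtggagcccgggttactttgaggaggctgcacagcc
The motif is read on the opposite strand, as the reverse complement of the capitals, and lies 154 to 145 bases before the start. Of 32851 promoters of the same length searched on both strands, 46 (0.140%) held that motif. The AP-1 motif TGANTCA, present in 2217 promoters (6.75%), and the PU.1 motif GAGGAAGT, present in 802 (2.44%), had no match in this window. These motifs were chosen after the sequence had been seen, and a match is only a match of letters.

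Oligodendrocytes had the highest mean Csf1 level over all libraries, and the place of microglia changed with tau. Without tau, microglia came after oligodendrocytes, fibroblasts, astrocytes and endothelial cells. They were level with granule neurons (log2 difference 0.03, granule neurons higher in 3 of 7 libraries). Committed oligodendrocyte precursors were in too few libraries to be placed in the order without tau, and fibroblasts in the order with tau. With tau, microglia came next to oligodendrocytes (log2 difference 0.02, oligodendrocytes higher in 5 of 7 libraries) and exceeded them in PS19 1 and 2. Summed counts per class and library, as CPM (a gene's UMIs scaled to a fixed total of all UMIs of that class), averaged 118 ± 24.3 in oligodendrocytes (SD, n = 14), with a lowest library of 92.6, a median of 109 and a highest of 165. Microglia averaged 82.95 ± 95.2 CPM (n = 14; lowest 6.64, median 44.1, highest 316). Fibroblasts averaged 81.5 ± 45.5 (n = 12 libraries with at least 10 such nuclei), committed oligodendrocyte precursors 53.6 ± 19.6 (n = 10), endothelial cells 50.1 ± 43.1 and astrocytes 42.8 ± 16.9 (both n = 14). Neurons were low: granule neurons of the dentate gyrus reached 14.6 ± 2.11 CPM, and CA3 and CA2 pyramidal, inhibitory, CA1 and subicular and other deep-layer neurons 2.31 to 3.47. Border macrophages, at 7.89 ± 13.8 CPM (n = 10), held only 4 Csf1 UMIs in 236 nuclei. Neighbours, ordered by mean log2(CPM + 1), did not differ beyond their spread after adjustment. The nearest was oligodendrocytes over fibroblasts, with a log2 difference of 1.06, higher in 9 of 12 libraries (exact sign-flip permutation p = 0.0210, 0.147 adjusted over 42 neighbour pairs).

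Il34 had another set of sources. Its highest level was in cells of the vessel wall and in fibroblasts: pericytes and smooth muscle at 373 ± 141 CPM (SD, n = 12; lowest 164, median 327, highest 644) and fibroblasts at 308 ± 99.0 (n = 12; 94.0, 307 and 465). These did not differ beyond their spread (log2 difference 0.20, higher in pericytes in 7 of 11 libraries, exact permutation p adjusted 0.393). Fibroblasts stood 3.31 above CA3 and CA2 neurons on the log2 scale, in 12 of 12 libraries (exact permutation p adjusted 0.00684).

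Among neurons, CA3 and CA2 pyramidal cells held Il34 at 28.5 ± 6.18 CPM (n = 14; lowest 19.3, median 27.2, highest 41.0), Cajal-Retzius neurons at 28.3 ± 9.14 and inhibitory neurons at 23.96 ± 3.28. Over all libraries no neighbours among these differed beyond their spread (adjusted p 0.945 and 0.533, exact permutation). Without tau, CA3 and CA2 neurons were 0.41 above inhibitory neurons on the log2 scale, in 7 of 7 libraries (exact permutation p = 0.0156, adjusted 0.0938). With tau the difference was 0.04, in 4 of 7. Inhibitory neurons were above the class of subicular and other deep-layer neurons, at 16.2 ± 2.56 CPM, in 14 of 14 libraries (log2 difference 0.54, exact permutation p adjusted 0.00513). That class was above CA1 neurons, at 14.1 ± 2.44, in 13 of 14 libraries (0.19, adjusted 0.0103, exact permutation). Its clusters differed, from 11.9 CPM over the summed counts of the one with Fn1 among its leading genes to 17.7 and 20.7 in the other large ones, and the CA1 clusters stood at 12.2 and 22.3. The CA1 cluster at 22.3, led by Cpa6 and Unc13c, had a lower score for CA1 markers (2.20 against 3.04). It took from 3.08% (WT 1) to 28.8% (PS19 2) of the CA1 class, so the CA1 level and its place in the order also rest on that cluster. Granule neurons, the most numerous neurons, came last in the order over all libraries, at 1.20 ± 0.347 CPM. Committed oligodendrocyte precursors stood only 0.02 above them on the log2 scale (higher in 4 of 10 libraries, exact permutation p adjusted 0.969). Without tau, microglia were below granule neurons in 5 of 7 libraries (log2 difference 0.50). The T cells, 107 nuclei outside this order, were at 0 CPM. Microglia held 35 Il34 UMIs in 9258 nuclei, or 1.70 ± 1.74 CPM, close to the level in granule neurons.

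**Figure D1:**
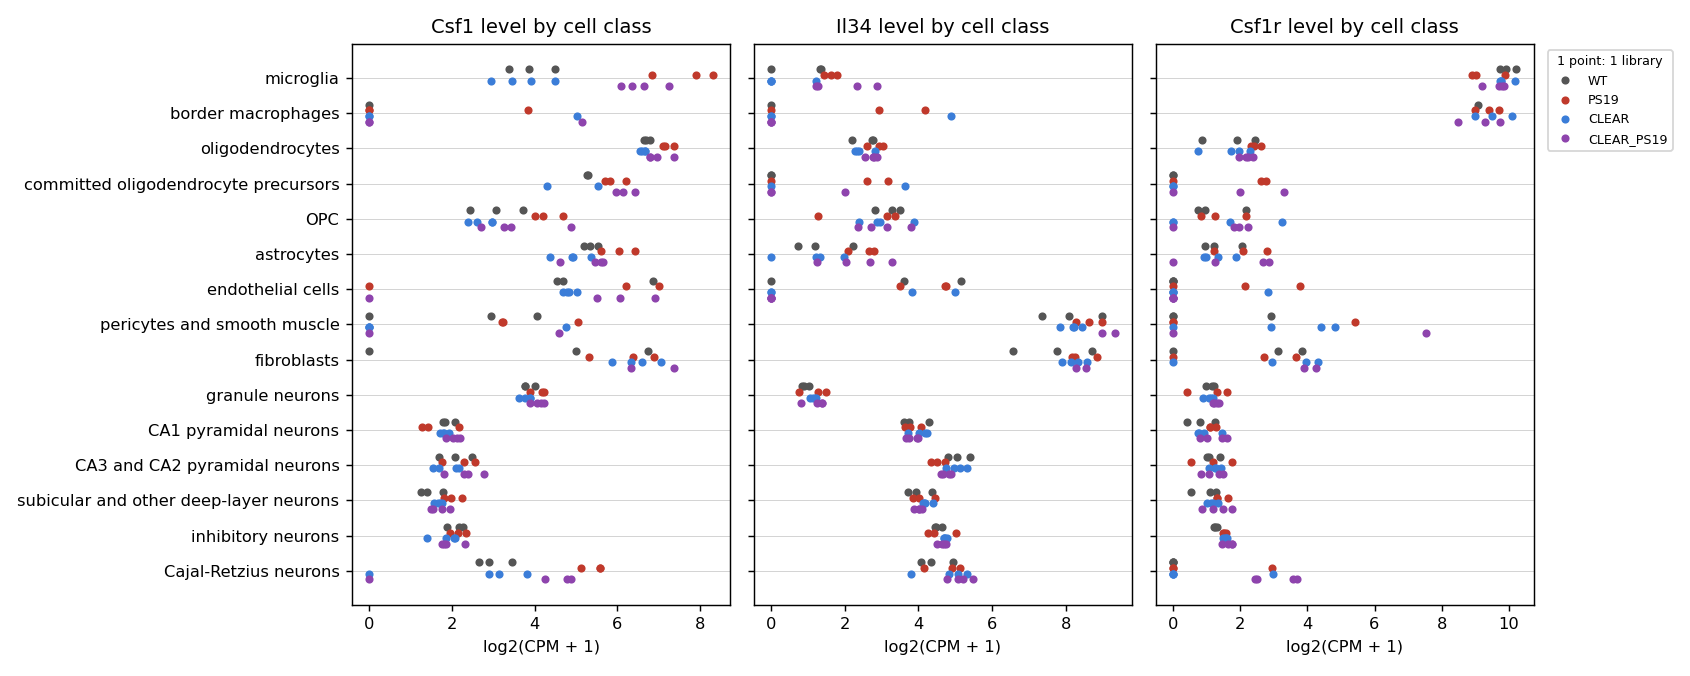
Level of Csf1, Il34 and Csf1r in each class of nuclei, as log2(CPM + 1) on the horizontal axes; each point is 1 library with at least 10 nuclei of the class, coloured by group. Csf1 is high in oligodendrocytes and ranges from 6.64 to 316 CPM in microglia, Il34 is highest in pericytes and fibroblasts, and Csf1r stands apart in microglia and border macrophages.

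A high level in a rare class is a small supply. As shares of all UMIs of a gene, the 578 pericyte and smooth muscle nuclei gave 3.21 ± 2.35% of Il34 (SD, n = 14 libraries) and the 664 fibroblasts 4.83 ± 4.52%. Neurons gave most of it: CA3 and CA2 neurons 21.5 ± 5.61%, CA1 neurons 19.1 ± 3.02%, inhibitory neurons 16.8 ± 2.17% and subicular and other deep-layer neurons 16.6 ± 2.77%. The mean Il34 level of CA1 neurons lay within the range over all nuclei, 11.2 to 16.2 CPM. Their share of Il34 was thus close to their share of all UMIs. The Il34 share of CA3 and CA2 neurons averaged 27.8% for WT, 14.8% for PS19, 21.9% for CLEAR and 21.5% for CLEAR_PS19. These shares move with how many nuclei of each class a library holds.

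For Csf1, oligodendrocytes gave 51.9 ± 5.94% of UMIs in all libraries, with group means from 44.9% in WT to 56.8% in CLEAR_PS19. The microglial share of Csf1 UMIs was 0.827, 1.57 and 0.652% in WT and 29.8, 38.4 and 12.01% in PS19. It was 2.03, 1.39, 0.395 and 0.910% in CLEAR and 8.47, 8.89, 15.7 and 6.27% in CLEAR_PS19. The lowest library with tau was therefore above the highest without it in either background, and the mean tau effect was 17.2 percentage points (exact permutation within backgrounds, p = 0.00143, the smallest that 1400 relabellings can give). Without the closely alike set it was 18.02 points (p = 0.0167, the smallest that 120 relabellings can give, exact permutation). Of all UMIs, microglia held 0.798, 0.891 and 1.07% in WT and 3.62, 5.79 and 2.31% in PS19. They held 1.25, 1.29, 0.902 and 1.27% in CLEAR and 1.81, 1.52, 3.08 and 1.87% in CLEAR_PS19. The Csf1 share thus moves with the amount of microglial RNA as well as with the level in microglia. Granule neurons went from 29.7% of Csf1 UMIs in WT to 10.0% in PS19, and from 24.7% in CLEAR to 18.2% in CLEAR_PS19. Their Csf1 level did not fall (mean tau effect 0.26 on the log2 scale, not a call).

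**Figure D2:**
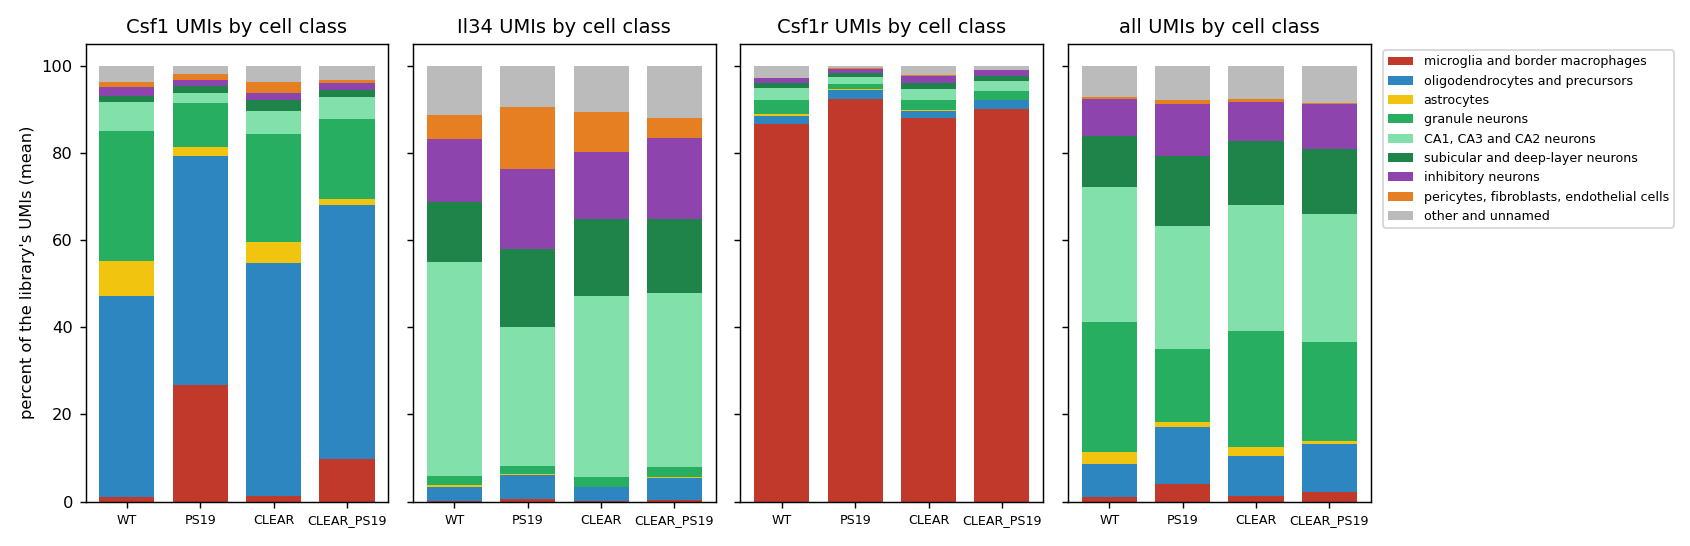
Share of each library's UMIs of Csf1, Il34 and Csf1r, and of all genes, that came from each class of nuclei, in percent; stacked bars are means over the libraries of a group. Microglia supply 1.017% of Csf1 UMIs in WT and 26.7% in PS19, neurons supply most Il34, and microglia supply most Csf1r in every group.

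The receptor was found mainly in the macrophage lineage. Csf1r (ENSMUSG00000024621) lies on the plus strand at chr18:61100598-61132149, and its exons overlap those of Hmgxb3 on the other strand. Bulk reads in that overlap cannot be assigned to a strand either. Csf1r averaged 852 ± 207 CPM in microglia (SD, n = 14; lowest 480, median 868, highest 1193) and 669 ± 211 in border macrophages (n = 10), which did not differ beyond their spread (log2 difference 0.29, 7 of 10 libraries, exact permutation p = 0.102, adjusted 0.393). With doublets kept the difference was 0.70 (unadjusted exact permutation p = 0.000732), and microglia had the higher share of nuclei with a UMI after thinning, by 13.8 percentage points (p = 0.0469, exact permutation). The direction was the same in each of these settings. Border macrophages stood 6.52 above the next class on the log2 scale, in 9 of 9 libraries (exact permutation p adjusted 0.0328). The other classes averaged 1.13 to 23.8 CPM, the highest being pericytes with 12 UMIs in all. Microglia gave 87.1 ± 3.61% of Csf1r UMIs and border macrophages 2.14 ± 1.48%.

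Over the means of 15 classes, the genes whose levels were most like those of Csf1r were Runx1 (Pearson r 0.99), Raet1e, Ptpn6, Nckap1l and Tnfrsf13b. For Il34 they were Dcdc2a (0.90), Gm42397, Bmp5, Slc5a5 and Gm35867, and for Csf1 they were Pcif1 (0.90), Wdr5b, Srp19, Rnf181 and Zkscan5. Classes share libraries and differ in depth, so these values only describe likeness.

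In microglia, Csf1 was about an order of magnitude higher with the tau transgene in either background. WT microglia had 13.49, 21.4 and 9.38 CPM, from 9, 14 and 6 Csf1 UMIs, and PS19 microglia 237, 316 and 114 CPM, from 671, 1106 and 138 UMIs. Summed over the group, WT microglia stood at 14.8 CPM (exact Poisson 95% interval 9.90 to 21.2, counting error only). CLEAR microglia had 21.4, 14.1, 6.64 and 9.95 CPM and CLEAR_PS19 microglia 80.9, 99.6, 152 and 66.9. Every library with tau lay above every library without it, and group means were 15.1-fold apart between PS19 and WT and 7.66-fold apart between CLEAR_PS19 and CLEAR.

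In the edgeR quasi-likelihood fit with sex as a term, Csf1 was 3.83 higher in PS19 than in WT microglia on the log2 scale (SE 0.33, adjusted p = 1.56e-05), where 10.6% of tested genes passed. It was 2.90 higher in CLEAR_PS19 than in CLEAR (SE 0.30, adjusted p = 2.19e-04), where 0.762% passed. In each of these comparisons, and in the mean tau effect of 3.37 (SE 0.22, adjusted p = 2.41e-07; 12.7% passed, 7.02% as higher and 5.68% as lower), Csf1 had the smallest p of the 10236 genes tested in edgeR. The exact permutation of tau within backgrounds gave p = 0.00143 for a mean difference of 3.33. Without the closely alike set of 4 libraries, Csf1 was 3.55 higher in CLEAR_PS19 than in CLEAR (edgeR adjusted p = 0.00269) and the mean tau effect was 3.70 (adjusted p = 2.40e-06).

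The tau effects in these backgrounds were not shown to differ (interaction −0.93, SE 0.50, edgeR adjusted p = 0.721; edgeR called 0 genes, and 770 had an unadjusted p under 0.05). The CLEAR mutation without tau left Csf1 not detectably changed (−0.24, SE 0.45, edgeR adjusted p = 0.951). With tau, Csf1 was 1.17 lower in CLEAR_PS19 than in PS19 microglia (log2 difference −1.17, SE 0.22, edgeR adjusted p = 0.0387; 0.596% passed). That call was lost without the closely alike set of CLEAR libraries (−0.83, adjusted p = 0.404), without PS19 2 (−0.95, adjusted p = 0.399), and in the other fits given in the closing section. Within the set of 6 male libraries PS19 averaged 276 CPM and the CLEAR_PS19 library had 152, and among females the values were 114 and 66.9.

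**Figure D3:**
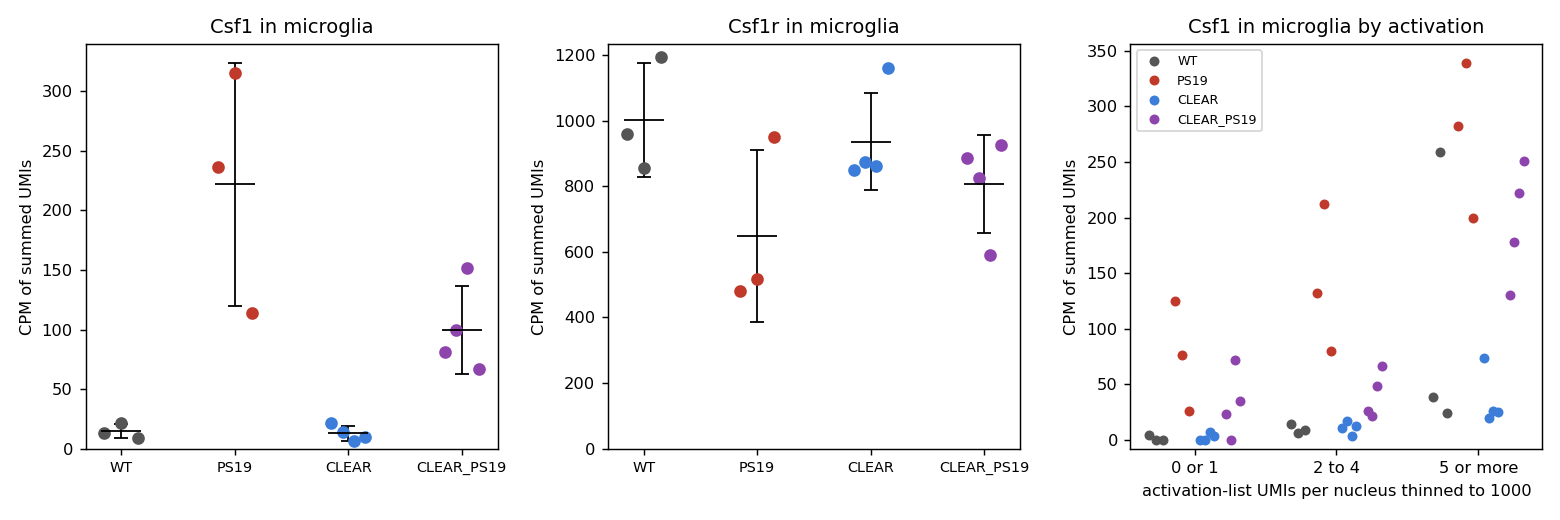
Csf1 and Csf1r in microglia by group (left and middle) and Csf1 in microglia binned by UMIs of the activation list (right), all in CPM on linear axes; each point is 1 library, horizontal lines are group means and bars 1 SD. Csf1 in all microglia does not overlap between libraries with and without tau, whereas Csf1r does, and Csf1 increases with the activation bin in every group mean.

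The receptor moved the other way in PS19 microglia. Csf1r was at 958, 855 and 1193 CPM in WT and 480, 517 and 951 in PS19, so the female PS19 library overlapped WT. It was at 850, 874, 861 and 1159 in CLEAR and 885, 824, 592 and 927 in CLEAR_PS19, which overlapped. Within the set of 6 male libraries it averaged 906 in WT against 498 in PS19, and was 861 in CLEAR against 592 in CLEAR_PS19. Among females it was 1193 against 951 and 1159 against 927, and in the closely alike set it averaged 862 against 854. The log2 difference was −0.72 in PS19 against WT (SE 0.16, edgeR adjusted p = 0.0079) and −0.21 in CLEAR_PS19 against CLEAR (SE 0.14, adjusted p = 0.673). The effects were not shown to differ between backgrounds (interaction 0.50, SE 0.21, edgeR adjusted p = 0.597). The mean tau effect was −0.47 (SE 0.11, edgeR adjusted p = 0.00692), and it did not pass in the exact permutation (−0.45, p = 0.0671), which takes no account of sex or set. Without the closely alike set the difference in CLEAR_PS19 against CLEAR was −0.45 (edgeR adjusted p = 0.340), the mean effect −0.58 (adjusted p = 0.00290), and the exact permutation gave −0.56 (p = 0.0833). Both edgeR calls, in PS19 against WT and for the mean tau effect, depended on the sex term. Without it they were −0.68 (edgeR adjusted p = 0.105) and −0.45 (adjusted p = 0.0887). The PS19 call was also lost without PS19 1 (−0.61, adjusted p = 0.0614) or PS19 2 (−0.68, adjusted p = 0.0510). Il34 had too few UMIs in microglia to be tested.

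The microglia fell into 2 clusters, and tau libraries filled them differently. The cluster of 5397 nuclei, led by Siglech, held Csf1 at 20.6 CPM and Csf1r at 949 over its summed counts. The cluster of 3861 nuclei, led by Apobec1 and Ly86, held Csf1 at 258 and Csf1r at 545. The Ly86 cluster took 2.86 ± 1.025% of WT microglia (SD, n = 3), 95.5, 98.6 and 45.4% of PS19 microglia, 5.69 ± 1.07% of CLEAR microglia (n = 4) and 18.4, 12.6, 76.2 and 12.2% of CLEAR_PS19 microglia. The 3 highest libraries, PS19 1, PS19 2 and CLEAR_PS19 3, are the tau libraries of the set of 6 male libraries, and the part of the set in this was not tested.

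Libraries with and without tau did not overlap inside the Siglech cluster, whereas PS19 and WT overlapped inside the Ly86 cluster, and several of these values rest on few UMIs. Within the Siglech cluster Csf1 was at 9.24, 4.67 and 6.61 CPM in WT and 55.0, 68.0 and 42.9 in PS19. It was at 12.8, 10.9, 1.79 and 9.27 in CLEAR and 32.0, 37.1, 20.5 and 37.7 in CLEAR_PS19. These values rest on 6, 3 and 4 Csf1 UMIs in WT, on 6 UMIs in 49 nuclei, 2 in 19 and 26 in 389 in PS19, on 1 to 9 per CLEAR library and on 10 to 37 per CLEAR_PS19 library. Within the Ly86 cluster PS19 was at 244, 318 and 184 CPM and CLEAR_PS19 at 253, 387, 191 and 233. CLEAR was at 159, 66.0, 69.0 and 20.2 CPM there, below every CLEAR_PS19 library. WT was at 169, 882 and 58.5 and overlapped PS19, from 16 Csf1 UMIs of which 11 came from 6 nuclei of WT 2 and 7 of these from a single nucleus, and CLEAR held 14. These clusters come from the same cells as the values, so the levels are a description.

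Microglia were also binned by 27 measured genes of the disease-associated activation state, none of them a member, after each nucleus was thinned to 1000 UMIs. Nuclei with at least 5 UMIs of the list were called high, 2 to 4 middle and 0 to 1 low. High nuclei averaged 8.36% of WT microglia, 63.3% of PS19, 17.4% of CLEAR and 46.0% of CLEAR_PS19. They were 22.5 and 30.2% in CLEAR 1 and 2, of the closely alike set, and 6.60 and 10.4% in CLEAR 3 and 4. WT libraries stood at 6.65 to 9.97%, PS19 at 71.8, 81.4 and 36.8%, and CLEAR_PS19 at 55.8, 56.8, 57.6 and 13.8%. The part of the library set in these shares was not tested. Csf1 averaged 1.33, 9.94 and 107 CPM in low, middle and high WT microglia, and 75.7, 141 and 274 in PS19. The averages were 2.79, 10.9 and 36.1 in CLEAR and 32.5, 40.8 and 195 in CLEAR_PS19.

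Csf1 was higher in high than in low nuclei of 14 of 14 libraries (mean log2 difference 3.63, SD 2.20, exact permutation p = 0.000122, the smallest possible). Without tau the direction rests on few Csf1 UMIs. High nuclei held 2, 12 and 1 in WT and 10, 4, 1 and 2 in CLEAR. Low nuclei held 1, 0 and 0 in WT and 0, 0, 2 and 1 in CLEAR. In 5 of the 14 libraries low nuclei held 0 Csf1 UMIs, so the size of the difference also rests on the pseudocount. With nuclei thinned to 2000 UMIs the difference was as large (3.99, higher in 5 of the 6 libraries left) but did not pass (exact permutation p = 0.0625, where the smallest possible was 0.0312). Without the closely alike set it was 3.04, in 10 of 10 libraries (exact permutation p = 0.00195). With tau, Csf1 was 2.76 higher within the middle bin and 2.32 higher within the high bin on the log2 scale (exact permutation p = 0.00143 and 0.00286). Without the closely alike set it was 3.31 and 2.63 higher (p = 0.0167 and 0.0333, exact permutation). Libraries without tau held 1 to 6 Csf1 UMIs in the middle bin. The high bin has no upper limit, and whether nuclei of a bin were equally activated with and without tau was not tested. In the low bin the difference was 3.95 (p = 0.0100, exact permutation), but WT and CLEAR held 1 and 3 Csf1 UMIs there and CLEAR_PS19 2 held 0, so its size rests on the pseudocount of 1 CPM. In the high bin WT 2 reached 259 CPM, from 12 UMIs in 24 nuclei, the same single nucleus holding 7 of them, and overlapped the tau libraries, while the other WT and CLEAR libraries stood at 19.97 to 74.0. Csf1r did not differ detectably between high and low nuclei (−0.16, SD 0.34, lower in 9 of 14 libraries, exact permutation p = 0.103), except without PS19 2 (−0.20, exact permutation p = 0.0391). Its tau differences of −0.34, −0.39 and −0.45 in the low, middle and high bins did not pass (exact permutation p = 0.206, 0.0829 and 0.0871). More CLEAR_PS19 microglia (785) than others (63 to 212) were too shallow to bin, and the part of this in the result was not tested.

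Other sources of Csf1 moved less. In oligodendrocytes Csf1 was at 102, 99.3 and 109 CPM in WT against 136, 163 and 141 in PS19. It was at 95.3, 92.6, 101 and 101 CPM in CLEAR against 109, 110, 165 and 123 in CLEAR_PS19. The tau libraries were the upper 7, by a narrow margin, but the mean tau effect of 0.44 did not pass (SE 0.11, edgeR adjusted p = 0.0733; 1.47% of genes passed). In oligodendrocyte precursors the effect was 1.26 (SE 0.33, edgeR adjusted p = 0.121; 0.458% passed), in astrocytes 0.55 (SE 0.18, adjusted p = 0.211; 1.04%) and in granule neurons 0.26 (SE 0.09, adjusted p = 0.262; 1.08%). None of these is a call. Microglial RNA in the oligodendrocyte sums moved with tau too: of 9 tested microglia markers 3 were higher and none lower, and all 15 summed to 81.97 to 106 CPM in WT against 155 to 213 in PS19 and to 70.4 to 115 in CLEAR against 117 to 165 in CLEAR_PS19, with no marker at 0 in any group. Its part in the Csf1 values of oligodendrocytes was not tested. In astrocytes the same sum was 112 to 156 CPM in WT against 190.4 to 254 in PS19, without overlap, and 107 to 156 in CLEAR against 146 to 229 in CLEAR_PS19, with overlap. In oligodendrocyte precursors it was 129 to 201 in WT against 240.2 to 294 in PS19, without overlap, and 201 to 239 in CLEAR against 207 to 230.1 in CLEAR_PS19, with overlap. 

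Within oligodendrocytes the difference varied with the cluster, as a description. A cluster led by C4b, a complement gene, made up 52.3, 60.1 and 7.87% of oligodendrocytes in PS19 and 3.91, 3.27, 42.6 and 3.73% in CLEAR_PS19, against means of 2.55% in WT and 1.44% in CLEAR. It was thus largest in PS19 1, PS19 2 and CLEAR_PS19 3, which are again the tau libraries of the set of 6 male libraries. In the C4b cluster Csf1 averaged 62.9 CPM in WT and 143 in PS19, which did not overlap, and 101 in CLEAR and 130.2 in CLEAR_PS19, which did. The WT values there rest on 11, 11 and 4 Csf1 UMIs and the CLEAR values on 13, 4, 18 and 6. In the cluster led by Enpp6 the averages were 129.8 against 189 and 134 against 179, without overlap in either background. In the cluster led by Cryab they were 105 against 122 and 94.3 against 103, and in the remaining one 87.4 against 114 and 72.6 against 91.5. The Cryab cluster made up 71.6 and 76.6% of oligodendrocytes in CLEAR 1 and 2 and 82.3 and 82.9% in CLEAR_PS19 1 and 2. These libraries are the closely alike set, and elsewhere the cluster made up 3.36 to 23.8%. The part of the set in this was not tested. Groups with and without tau overlapped in the Cryab cluster in both backgrounds, and in the remaining cluster in the CLEAR background.

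Il34 gave no call with tau in the neuronal sources tested; in Cajal-Retzius neurons it had too few UMIs to be tested. In CA3 and CA2 neurons it averaged 33.4 CPM for WT, 22.3 for PS19, 32.2 for CLEAR and 26.0 for CLEAR_PS19, with a mean tau effect of −0.41 (SE 0.10, edgeR adjusted p = 0.366; 0.0612% passed). The effect was −0.14 in CA1 neurons (edgeR adjusted p = 0.705; 0.143% passed), −0.03 in inhibitory neurons (adjusted p = 0.999; 0.0714%) and −0.09 in subicular and other deep-layer neurons (adjusted p = 0.866; 0.11%). Pericytes and fibroblasts had too few nuclei in some libraries to be fitted.

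Summed over all nuclei, Csf1 and Csf1r rose with tau and Il34 gave no call. Csf1 was at 13.02, 12.1 and 15.4 CPM in WT against 28.8, 47.6 and 21.9 in PS19, and at 13.1, 13.2, 15.1 and 13.8 in CLEAR against 17.3, 17.1, 29.8 and 19.98 in CLEAR_PS19. Csf1r was at 9.73, 8.65 and 14.6 in WT against 19.5, 33.1 and 24.7 in PS19, and at 12.6, 13.1, 9.62 and 16.6 in CLEAR against 17.8, 14.5, 20.004 and 19.8 in CLEAR_PS19. Csf1 with tau lay above Csf1 without it in every library, and Csf1r overlapped between CLEAR and CLEAR_PS19.

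The mean tau effect over all nuclei was 0.86 for Csf1 (SE 0.17, edgeR adjusted p = 0.00839) and 0.82 for Csf1r (SE 0.13, adjusted p = 0.00266), where 6.77% of genes passed. In PS19 against WT the effects were 1.13 for Csf1 (SE 0.25, edgeR adjusted p = 0.0206) and 1.14 for Csf1r (SE 0.19, adjusted p = 0.00605), with 6.14% passing. In CLEAR_PS19 against CLEAR they were 0.59 and 0.49 and did not pass (edgeR adjusted p = 0.507 and 0.434; 0.0543% passed), and the interactions did not pass (adjusted p = 0.741 and 0.573). The PS19 call of Csf1 was lost without WT 1 (1.09, adjusted p = 0.0846), WT 2 (1.08, 0.114) or PS19 2 (0.81, 0.101). Il34 ranged from 11.2 to 16.2 CPM over the 14 libraries, with a mean tau effect of −0.06 (SE 0.07, edgeR adjusted p = 0.733). Without the closely alike set the mean tau effects were 0.90 for Csf1 (edgeR adjusted p = 0.0270) and 0.86 for Csf1r (adjusted p = 0.0284).

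Microglia made up 3.82, 4.17 and 4.94% of named nuclei in WT and 11.1, 15.9 and 8.83% in PS19. They made up 5.46, 5.86, 4.05 and 5.85% in CLEAR and 7.48, 6.34, 10.9 and 7.84% in CLEAR_PS19. The shares did not overlap between libraries with and without tau (difference 5.24 percentage points, exact permutation p = 0.00143; 6.03 without the closely alike set, p = 0.0167), so relations to the share are given within the 7 libraries of each kind, 14 relations in all. With tau, Csf1 over all nuclei went with the microglial share (Pearson r 0.99, exact permutation p = 3.97e-04, adjusted 0.00556; Spearman rho 0.96, adjusted 0.0389), and r stayed at 0.99 without the 2 farthest libraries.

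Csf1 inside microglia also went with the share (r 0.90, exact permutation p = 0.00417, adjusted 0.0292; rho 0.86, adjusted 0.167; r 0.93 without the 2 farthest). For Csf1r the relation over all nuclei (r 0.85, exact permutation p adjusted 0.0633; rho 0.75, adjusted 0.186) rested on the 2 farthest libraries, without which r was 0.11. Csf1r per microglial UMI had r −0.79 (adjusted 0.0633) and rho −0.61 (adjusted 0.259), and Csf1 in oligodendrocytes r 0.83 (adjusted 0.0620) and rho 0.79 (adjusted 0.186), neither passing the exact permutation test after adjustment. Il34 over all nuclei had r 0.36 (adjusted 0.584).

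Among the 7 libraries without tau no relation passed adjustment. Csf1r over all nuclei had r 0.85 (exact permutation p adjusted 0.0722) and Il34 in excitatory neurons r 0.87 (adjusted 0.0722). Csf1 over all nuclei had r 0.03 (adjusted 0.954) and Csf1 in microglia r 0.11 (adjusted 0.878). Over the 5 libraries with tau outside the closely alike set, r was 0.995 for Csf1 over all nuclei (unadjusted exact permutation p = 0.0167), 0.901 for Csf1 in microglia (p = 0.0417, exact permutation) and 0.748 for Csf1r over all nuclei (p = 0.133, exact permutation). The 7 points come from different genotypes and library sets, and values over all nuclei contain the microglial UMIs themselves.

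**Figure D4:**
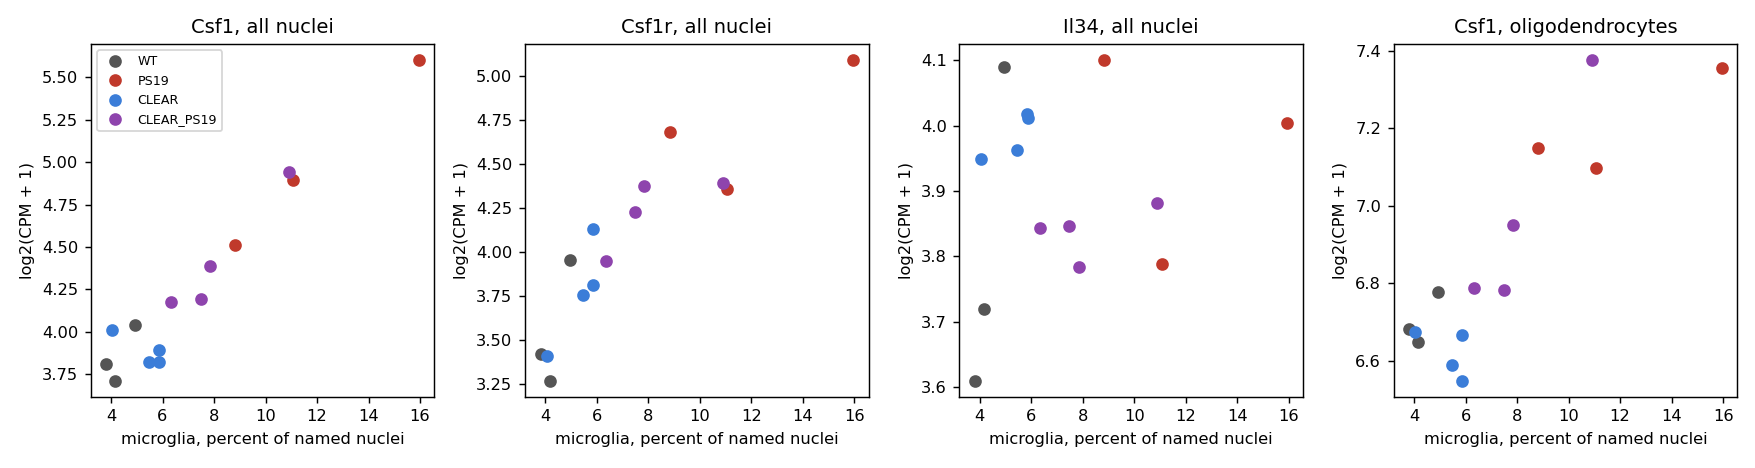
Csf1, Csf1r and Il34 over all nuclei and Csf1 in oligodendrocytes, as log2(CPM + 1), against the microglial share of named nuclei, in percent; each point is 1 of the 14 libraries, coloured by group. With tau, Csf1 over all nuclei follows the share (r 0.99, n = 7), and Il34 stays between 11.2 and 16.2 CPM.

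In bulk hippocampus at 9 months Csf1 and Csf1r were higher in PS19, and Il34 was not detectably different. In bulk tissue, more cells of a type and more RNA per cell cannot be told apart. Csf1 was at 31.2, 35.3, 29.8, 32.5 and 32.1 CPM in WT and 55.9, 48.9, 59.98 and 63.8 in PS19, with no overlap. Csf1r was at 106, 102, 99.0, 86.6 and 80.7 in WT and 173, 179, 178 and 200 in PS19, also with no overlap. Il34 overlapped, at 38.4, 38.3, 30.3, 35.5 and 34.4 in WT and 39.1, 37.6, 32.4 and 37.4 in PS19. The log2 difference was 0.83 for Csf1 (SE 0.08, edgeR adjusted p = 1.87e-07), 0.94 for Csf1r (SE 0.10, adjusted p = 4.21e-07) and 0.05 for Il34 (SE 0.09, adjusted p = 0.783), where 12.8% of 16133 genes passed, 7.68% as higher and 5.09% as lower.

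At 4 months none of the members differed. Csf1 had a lowest, median and highest value of 26.4, 32.4 and 35.1 CPM in WT and 28.5, 32.1 and 34.3 in PS19. Csf1r had 70.0, 87.5 and 109 in WT and 71.5, 82.9 and 90.3 in PS19, and Il34 had 31.5, 40.7 and 42.3 against 34.0, 37.8 and 42.6. Log2 differences were −0.00084 for Csf1, −0.10 for Csf1r and −0.05 for Il34, far from passing in edgeR, where 0.0186% of genes passed. The tau effect differed between the ages for Csf1 (interaction 0.83, SE 0.11, edgeR adjusted p = 2.61e-05) and Csf1r (1.04, SE 0.13, adjusted p = 1.45e-05), where 5.41% of genes passed, and not detectably for Il34 (0.10, adjusted p = 0.705). From 4 to 9 months Csf1 rose by 0.84 and Csf1r by 1.15 in PS19 (edgeR adjusted p = 6.01e-08 and 6.36e-09; 17.3% passed). In WT edgeR called 0 genes between the ages, with 1802 at an unadjusted p under 0.05.

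**Figure D5:**
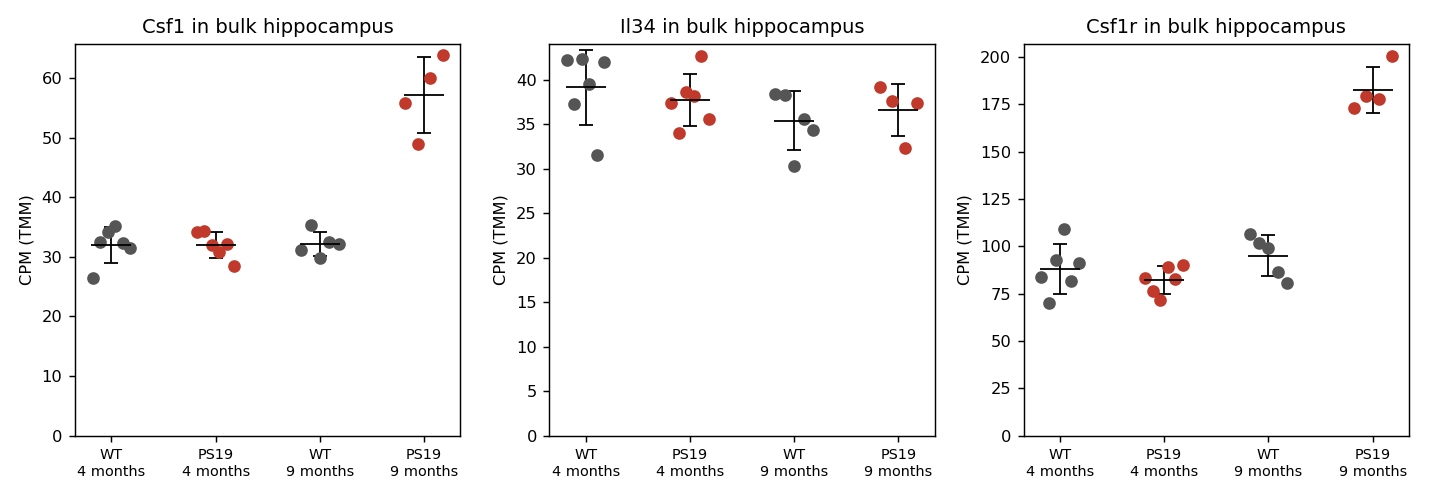
Csf1, Il34 and Csf1r in bulk hippocampus by genotype and age, in CPM scaled by TMM; points are libraries, horizontal lines are group means and bars 1 SD. Csf1 and Csf1r of PS19 at 9 months lie above every other library, and Il34 overlaps in all groups.

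Over the 21 bulk libraries the gene most like Csf1 was Trem2, a microglial lipid receptor (Pearson r 0.96), followed by Laptm5, Slco2b1, Cd33 and Ly86. The gene most like Csf1r was C1qa, a complement subunit of microglia (0.97), and Cx3cr1, Mpeg1 and Nckap1l were also among the nearest. Il34 was nearest to Acsf3 (0.92) and then, at 0.79 to 0.71, to Med11, Naa60, Ypel3 and Rgs12. The libraries share depth and age groups, so these values describe likeness only.

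In bulk tissue at 9 months many but not all pathway genes were higher in PS19, beside 7.68% of all genes tested as higher and 5.09% as lower. All 15 microglia markers passed as higher in edgeR, from 0.47 for P2ry12 to 2.23 for C1qa, with a median of 0.88 beside −0.0081 over all genes tested and beside 0.94 for Csf1r. Of the ligands, receptor and partner receptors, 4 of 7 were higher, among them Tyrobp (2.26), the adaptor of Trem2, and Trem2 (1.99). Of the transcription factors of the lineage 7 of 10 were higher, including Irf8 (1.72), Spi1 (1.52) and Sall1 (0.53). Of the signalling genes next to the receptor 12 of 24 were higher and 1 lower, with Vav1 (1.35), the phosphoinositide 3-kinase subunit Pik3cg (1.26), the Src family kinase Lyn (1.25) and Stat3 (0.66) among the higher.

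Against the same shares of all genes (7.68% higher, 5.09% lower), 4 of 11 negative regulators were higher in bulk at 9 months, including the phosphatases Ptpn6 (1.70) and Inpp5d (0.94) and the cytokine signal suppressor Socs3 (2.29), and the ubiquitin ligase Cblb was lower (−0.34). None of 11 proliferation genes passed (Top2a 0.99, edgeR adjusted p = 0.0507), nor any of 8 other class III ligands and receptors. Receptors and ligands of other myeloid pathways gave 8 of 10 higher and 1 lower, led by Csf2rb (2.27) and Csf3r (1.76). Of 27 activation genes 23 were higher (median 1.27). Among possible sources of ligand, 5 of 10 oligodendrocyte markers, 2 of 10 pericyte markers and 0 of 10 fibroblast markers were higher; the last 2 counts are near the share of all genes. At 4 months no gene of these lists was called, where 0.0186% of all genes were.

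Inside microglia, where the mean tau effect was called as higher for 7.02% of all genes and as lower for 5.68%, most pathway genes were not called. Of 5 tested ligand and receptor genes, Csf1 was higher and Csf1r lower with tau, while Trem2 (0.29) and Tyrobp (0.44) did not pass (edgeR adjusted p = 0.407 and 0.219). Of 10 lineage factors 0 rose and 3 fell: Sall1, a factor of homeostatic microglia (−0.53, edgeR adjusted p = 0.0037), Maf (−0.50, 0.00714) and Mef2a (−0.32, 0.0488). Of 24 signalling genes 3 rose, among them the Src family kinase Fgr (3.46, edgeR adjusted p = 8.46e-06), and 2 fell, Pik3cg (−0.38, 0.0194) and Pik3r1 (−0.35).

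Beside 7.02% of all genes called higher and 5.68% lower in microglia, Ptpn6 rose of 7 tested negative regulators (0.77, edgeR adjusted p = 4.05e-04), and of 4 tested proliferation genes none was called. Of 3 other class III genes tested, Pdgfa, a growth factor, rose (0.97, edgeR adjusted p = 0.00208). Csf2ra and Csf2rb, the receptor chains for another colony stimulating factor, rose by 1.11 and 0.63, and Tgfb1 (−0.47) and Cx3cr1 (−0.36) fell. Of 15 microglia markers 0 rose and 6 fell (median −0.35, beside −0.0169 over all genes), and of 27 activation genes 23 rose and none fell (median 1.34). In CLEAR_PS19 against CLEAR, where 0.762% of all genes were called, 10 of 27 activation genes, 2 of 24 signalling genes and, of the 5 ligand and receptor genes, Csf1 rose, and 0 of 10 lineage factors and 0 of 15 microglia markers were called. None of 10 oligodendrocyte markers and neither of the fibroblast markers tested was called in microglia with tau, and no pericyte marker had enough counts to be tested. The 10 oligodendrocyte markers summed to 372 to 656 CPM for WT microglia, 519.6 to 583 for PS19, 391 to 533 for CLEAR and 394 to 729.5 for CLEAR_PS19, which overlapped, with none at 0 in a group. Of the border macrophage markers 1 rose and 1 fell of 3 tested.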

How the data were processed

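Nuclei libraries are raw UMI counts per gene and barcode, deposited by the authors from Cell Ranger (5.0.1 per the file headers; mm10 per the submitters' processing notes). Bulk libraries are raw read counts per gene, deposited by the authors. The notes name cutadapt, STAR, featureCounts, DESeq2 and Seurat, and a file header gives featureCounts 2.0.0, unstranded, on read pairs over exons.

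Nuclei with at least 300 genes and under 5% mitochondrial UMIs were kept. Doublets were called per library at 0.8% per 1000 nuclei (6.11 to 13.46%) and 12562 were removed. Counts scaled to 10000 per nucleus were clustered without the 3 members (scanpy 1.11.5, leidenalg 0.10.2), and clusters were named from marker lists with a scoring rule set after the clusters were seen. UMIs were summed per library and class. A class with fewer than 10 nuclei in a library was left out there, and a class short in any library was not fitted. Sums were tested with edgeR 4.0.16 (quasi-likelihood, TMM, filterByExpr, sex as a term) in R 4.3.3, with Benjamini-Hochberg adjustment over all genes tested and a threshold of 0.05. All bulk libraries went into 1 edgeR fit of 4 groups with no covariate. The edgeR steps were tested on simulated data. Other tests are two-sided exact permutations over libraries on log2(CPM + 1), and "adjusted" after them means over the family stated. DESeq2 1.42.0 was an alternative, beside other scalings, filters, blocks and left-out libraries.

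The members and gene lists were chosen with earlier results of these data known. The named genes are the members, up to 4 called genes of the smallest p for each list and comparison (where none was called, the 1 of smallest p), and the 5 genes most like each member. P2ry12, C1qa, Pik3r1 and, in microglia, Trem2 and Tyrobp were named after their values were seen. Relations over all 14 libraries and over males alone were computed and are not given, because the microglial share separates libraries with and without tau. Clec7a was not analysed here, and some genes that the naming rule selects are not reported here.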

Additional observations from a re-analysis of the deposited data

Results flagged for a closer look

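Among the CLEAR libraries, Csf1r in microglia was at 1159 CPM in CLEAR 4, the female, apart from the other three at 850, 861 and 874. The female library was the highest in each of the other groups too (WT 3 at 1193, PS19 3 at 951 and CLEAR_PS19 4 at 927 CPM). The comparison of the most distant library with its group's range picked this out as the only 1 of 38 groups checked, where chance picks about 1 in 20 groups. The effect of PS19 on bulk Csf1 differed between 9 and 4 months by 0.83 on the log2 scale (edgeR interaction, adjusted p = 2.61e-05), and that on bulk Csf1r by 1.04 (edgeR adjusted p = 1.45e-05). All 4 PS19 libraries at 9 months lay above every WT library for both genes, and at 4 months the genotypes overlapped.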

How the results depend on the processing

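The rise of Csf1 with tau in microglia passed in each of 11 other settings (log2 difference 3.31 to 3.70) and with each library left out (3.25 to 3.49). Bulk Csf1 and Csf1r at 9 months passed in each of 5 settings (0.83 to 0.86 and 0.93 to 0.98). Over all the results, 304 alternatives other than leaving out a library kept direction and side of the threshold, 22 lost the call, 6 gained it and 11 changed sign. For order, activation and relations the side was read from the unadjusted p. The cause of the changes below was not tested.

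For microglial Csf1 in CLEAR_PS19 against PS19, the call was lost with no sex term (−1.14, edgeR adjusted p = 0.162), with the library set as a block (−0.91, 0.0698), with doublets kept (−1.12, 0.0913) and, chosen after seeing the data, without the closely alike set (−0.83, 0.404). It ranged from −1.41 to −0.95 with a library left out, and was also lost without PS19 1 (−1.25), CLEAR_PS19 1 (−1.02) or CLEAR_PS19 2 (−1.10). Microglial Csf1r with no sex term was −0.68 in PS19 against WT and −0.45 for the mean tau effect, and the first ranged from −0.91 to −0.61 with a library left out. Csf1r in CLEAR_PS19 against PS19 ranged from 0.30 to 0.59, and passed without CLEAR_PS19 3 (0.49). Csf1 over all nuclei in PS19 against WT ranged from 0.81 to 1.41 with a library left out, and missed the threshold with at least 1000 genes per nucleus (1.14, edgeR adjusted p = 0.0601).

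Values near 0 changed sign: bulk Csf1 at 4 months with only its own groups fitted (0.000525) and with a library left out (−0.050 to 0.031), bulk Il34 at 9 months (−0.0010 to 0.11), and Il34 over all nuclei with no scaling (0.0066) and, in PS19 against WT, with a library left out (−0.029 to 0.13).

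The replicate number as a block changed 1 call, Csf1r in CLEAR_PS19 against PS19 microglia (0.56, edgeR adjusted p = 0.0148), and no other. With the block, the mean tau effect on microglial Csf1 was 3.35 and the bulk effects at 9 months 0.85 for Csf1 and 0.93 for Csf1r. Whether the numbers pair the libraries was not settled. Deviations of same-numbered libraries correlated at −0.456 to 0.386 in microglia (9 of 19 pairs over 0.1, against 17 of 54 with different numbers). In bulk they correlated at 0.0156 to 0.0813 at 9 months (0 of 4 against 0 of 16) and −0.294 to 0.318 at 4 months (4 of 6 against 11 of 30). Same-numbered microglia within a background correlated at 0.0820 to 0.386, and there equal numbers also share sex and library set.

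In the order of classes, the share of nuclei with a UMI after thinning gave, in percentage points, 2.08 for Csf1 in oligodendrocytes minus fibroblasts, 5.12 for fibroblasts minus committed precursors, −0.025 for Il34 in CA3 and CA2 minus Cajal-Retzius neurons and 13.8 for Csf1r in microglia minus border macrophages. With doublets kept the log2 differences were 0.35 for Csf1 in committed precursors minus microglia, 0.70 for Csf1r in microglia minus border macrophages and 1.67 in fibroblasts minus pericytes. With a library left out the first of these ranged from −0.36 to 0.095, and CA3 and CA2 minus Cajal-Retzius neurons from −0.034 to 0.13. On unadjusted p, the thinned share lost the call of oligodendrocytes over fibroblasts and gained one for fibroblasts over committed precursors, both settings gained one for Csf1r in microglia over border macrophages, and doublets kept gained one for fibroblasts over pericytes. Thinning to 2000 UMIs left 6 libraries, in which the activation difference of Csf1 was as large but did not pass (3.99, exact permutation p = 0.0625) and that of Csf1r was 0.11, and leaving out a library gave −0.20 to −0.096 for Csf1r, which passed only without PS19 2 (−0.20, exact permutation p = 0.0391).

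Among relations to the microglial share with tau, leaving out the 2 farthest libraries gave r 0.11 for Csf1r over all nuclei, −0.069 for Il34, −0.91 for Csf1r in microglia and 0.80 for Csf1 in oligodendrocytes (0.71 with at least 1000 genes per nucleus). With a library left out these ranged from 0.54 to 0.93 for Csf1r, −0.87 to −0.76 in microglia and 0.78 to 0.90 in oligodendrocytes. Without tau, the 2 farthest left out gave 0.89 for Csf1r over all nuclei, −0.015 for Csf1 and 0.81 for Il34 in excitatory neurons. With at least 1000 genes these were 0.32, −0.14 and 0.44, with −0.16 for Csf1r in microglia, and doublets kept gave 0.81 for Il34 over all nuclei. Leaving out a library gave 0.80 to 0.91 for Csf1r over all nuclei, −0.26 to 0.32 for Csf1, 0.58 to 0.85 for Il34, −0.24 to 0.38 for Csf1 in microglia, −0.021 to 0.48 for Csf1r in microglia and 0.81 to 0.99 for Il34 in excitatory neurons. Without the closely alike set, chosen after seeing the data and leaving 5 libraries of each kind, r with tau was 0.748 for Csf1r over all nuclei, −0.759 in microglia and 0.729 for Csf1 in oligodendrocytes. Without tau it was 0.930 for Csf1r over all nuclei, 0.863 for Il34 in excitatory neurons, −0.245 for Csf1 in microglia and 0.209 in oligodendrocytes. Clustering at resolution 2 was not run for all nuclei, whose sums it cannot change.

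Depth limits Csf1 in microglia without tau, where a library held 4 to 16 UMIs, and Il34 in microglia. No group holds more than 4 nuclei libraries.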
